A study of Mus musculus with 23 samples.

Results

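The 75 cytosolic ribosomal protein genes of the mouse were followed in hippocampal RNA from 23 mice. They are the rows of a table of 19733 genes whose symbols start with Rpl, Rps or Rplp and end in a number, with or without a final a or x. This rule takes 46 genes of the large subunit, among them the 3 Rplp genes of the ribosomal stalk, and 29 genes of the small subunit, and it leaves out pseudogenes, ribosomal protein kinases and tissue-specific paralogs. All mice were male C57BL/6J mice acquired at 6 weeks of age, and all were kept on AIN93M-based liquid diets for 16 weeks, with behavioral tests in the following week. The 9 Ctrl mice received the control diet, the 7 EtOH mice the ethanol diet, and the 7 EtOH-UA mice the ethanol diet with urolithin A (UA), a compound that gut bacteria make from ellagitannins, at 200 mg/kg/day by daily gavage. Ctrl and EtOH mice were given the sodium carboxymethyl cellulose vehicle in the same way. The level of each gene was given in FPKM, a count of sequenced fragments divided by transcript length and by library size, so that levels of different genes are compared per unit of transcript length.

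Ribosomal proteins and ribosomal RNA together form the small subunit, which decodes the messenger RNA, and the large subunit, which joins the amino acids. One copy of nearly all of these proteins is needed in each ribosome. Their messenger RNAs carry a run of pyrimidines at the very 5′ end, the 5′ terminal oligopyrimidine or TOP motif, through which mTOR signaling and the LARP1 protein control their translation. In neurons, ribosomal protein messenger RNAs are also found in dendrites and axons, and local protein synthesis there contributes to synaptic plasticity.

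The start sites of the genes were read first, because the pyrimidine run is the sequence feature that the family is known for. Of the 75 genes, 55 matched 1 or more of the RefSeq promoters of GRCm38.p6, 65 start sites in all. In each, the 30 bases from 15 before to 15 after the annotated start were searched on the transcribed strand for the longest unbroken run of C and T. A run of 8 or more was present at 26 of the 65 start sites (40.0%, 95% Wilson interval 29.0 to 52.1%), against 3943 of 32851 start sites of all genes (12%). The 7 windows below, with the run in capitals, show how its place varied around the annotated start, whose first base is base 16 of each window. Rpl7a had the longest run of the family, 21 bases, and Rps6, Rplp2, Rpl15, Rpl14, Rpl38 and Rps10 are genes that the results below return to or that stand for a particular role.
Rpl7a, GRCm38.p6 chr2:26910792-26910821, plus strand: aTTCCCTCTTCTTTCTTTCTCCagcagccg
Rpl15, chr14:18270972-18271001, minus strand: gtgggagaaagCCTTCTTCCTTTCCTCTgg
Rpl14, chr9:120571502-120571531, plus strand: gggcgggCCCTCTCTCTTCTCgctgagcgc
Rps10, chr17:27635230-27635259, minus strand: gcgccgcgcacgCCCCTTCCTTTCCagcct
Rps6, chr4:86857353-86857382, minus strand: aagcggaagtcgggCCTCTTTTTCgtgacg
Rpl38, chr11:114668565-114668594, plus strand: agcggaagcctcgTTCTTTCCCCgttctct
Rplp2, chr7:141447636-141447665, plus strand: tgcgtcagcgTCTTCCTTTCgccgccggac

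Other members had no such run in the window at their annotated start, and 4 of them are shown here for comparison, all in lower case. Rps28 and Rps3 belong to the small subunit, Rplp0 is the base of the stalk, and Rpl41 encodes the shortest protein of the family.
Rps28, chr17:33824548-33824577, minus strand: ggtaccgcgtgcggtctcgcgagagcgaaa
Rps3, chr7:99483695-99483724, minus strand: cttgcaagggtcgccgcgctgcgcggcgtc
Rplp0, chr5:115559452-115559481, plus strand: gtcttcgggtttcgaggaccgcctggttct
Rpl41, chr10:128549154-128549183, minus strand: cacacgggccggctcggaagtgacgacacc
By gene, 25 of the 55 members with a window had the run at 1 or more start sites (45.5%), against 13.9% of the genes with a start site in the whole set. A shorter run of 5 or more beginning within 5 bases of the start was found at 35.4% of the start sites of the family and 22.03% of all. An annotated start can lie some bases from the start used in the tissue, so a window without a run says only that the run is not in those letters. The genes with and without the run were at similar levels: the median of their mean levels was 199 FPKM over the 25 genes with a run and 201 FPKM over the 30 without, and the other 20 members, which had no window, were at a median of 239 FPKM. The median spread between mice, as the SD of log2 values within groups, was 0.26 with a run and 0.28 without.

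The family was abundant in every mouse. The median member had a mean of 200.5 FPKM over the 23 mice, and 68 of the 75 had a mean of at least 100 FPKM, a level that 584 genes of the whole table reached. Rpl3, which lies near the peptidyl transferase center of the large subunit (chromosome 15, 80077781 to 80083406 of GRCm38), was the highest at 430 FPKM. It was followed by the stalk gene Rplp1 at 412 FPKM, then Rpl9 at 379 FPKM, Rps15 at 376 FPKM and Rpl23a at 371 FPKM. Members of the large subunit (median of the mean levels 197 FPKM) and of the small subunit (202 FPKM) were at similar levels. Within groups Rpl3 ranged from 361 to 512 FPKM in Ctrl mice with a median of 397, from 359 to 526 FPKM in EtOH mice with a median of 409, and from 371 to 659 FPKM in EtOH-UA mice with a median of 402, so that the 3 groups overlapped over most of their range.

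The stalk, through which the ribosome recruits the elongation factors, is made of one P0 protein and dimers of P1 and P2. Rplp0 was at 121 FPKM, Rplp2 at 165 FPKM and Rplp1 at 412 FPKM on average. The messenger RNAs of the stalk were therefore not at equal levels: Rplp1 was 2.78 to 3.98 times as high as Rplp0 in single mice, with a median of 3.33, and Rplp2 was 1.13 to 1.67 times as high, with a median of 1.34. The ribosomal proteins that bind MDM2 together with 5S RNA, Rpl5 and Rpl11, were at 212 and 125 FPKM. Rpl10, a late joining protein of the large subunit, was at 299.9 FPKM, and Rpl13a, which is also known from the interferon response, at 294 FPKM. Rpl38, known for its role in the translation of Hox messenger RNAs, was at 253 FPKM, and Rpl41, whose product is the smallest protein of the ribosome, at 354 FPKM. In the small subunit, Rps4x was at 226 FPKM, Rps19, the gene first linked to Diamond-Blackfan anemia, at 202 FPKM, and Rps3, at the entry of the messenger RNA channel, at 129 FPKM. Rps27a, which encodes a fusion of ubiquitin with the ribosomal protein, was at 257 FPKM.

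**Figure D1:**
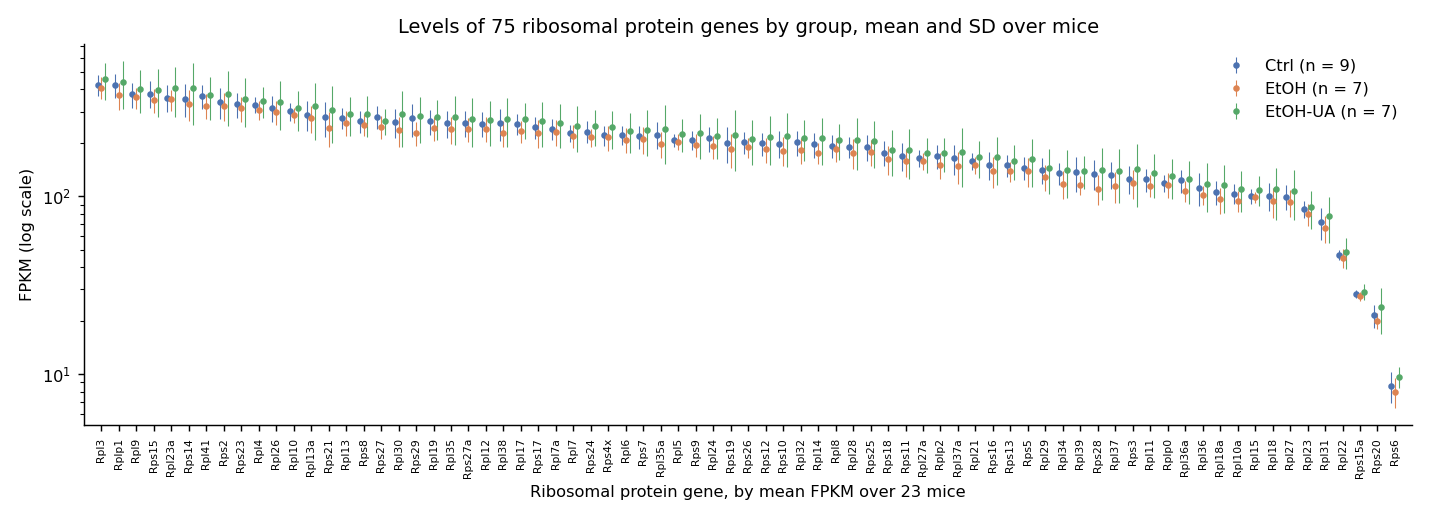
Mean FPKM of the 75 ribosomal protein genes in Ctrl (n = 9), EtOH (n = 7) and EtOH-UA (n = 7) mice on a log axis, ordered by the mean over all 23 mice, with bars for the SD over mice. Levels decline from 430 FPKM for Rpl3 to 71.8 FPKM for Rpl31 with little separation of the groups, and then steeply through Rpl22, Rps15a and Rps20 to Rps6 at 8.74 FPKM.

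The plot of levels by gene shows that the lower end of the order was made of a few genes that stood away from the rest. Rpl31 was at 71.8 FPKM, Rpl22 at 46.9 FPKM, Rps15a at 28.3 FPKM, Rps20 at 21.7 FPKM and Rps6 at 8.74 FPKM, so that the highest member was 49.2 times as high as the lowest. The 2 members with the longest annotated transcripts were among them: the median over the coding transcripts of the gene in GENCODE was 5130 bases for Rps15a and 3706 for Rps20, against a median of 771 bases over the 75 members. Rpl22, at 2048 bases, was as long as Rpl5, at 2045 bases, which was at 212 FPKM, and Spearman's rho of length and mean FPKM was -0.12 across the 75 genes. FPKM are divided by transcript length, and the part of that division in the values of Rps15a and Rps20 was not tested. The order of the 75 genes was nearly the same in every mouse. Spearman's rho of the levels between 2 mice was at least 0.948 in all 253 pairs of mice (median 0.99, across genes, which are not independent replicates), and the same 10 genes were the highest in each of the 3 groups.

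Rps6 encodes the small subunit protein that S6 kinase phosphorylates downstream of mTOR, and its row was unlike that of any other member. The gene lies on chromosome 4 from 86854099 to 86857367 and its level spanned 6.10 to 11.4 FPKM among Ctrl mice around a median of 8.65, 6.30 to 10.6 FPKM among EtOH mice around 7.76, and 8.22 to 11.9 FPKM among EtOH-UA mice around 9.45. On chromosome 2, from 75190995 to 75191854, RefSeq annotates Rps6-ps4, a transcribed pseudogene whose sequence matched the coding sequence of Rps6 at 100% identity. Rps6-ps4 had its own row in the table, at 256 to 485 FPKM in single mice with a mean of 310 FPKM, near the level of the most abundant members. Rps6 held between 1.65 and 3.79% of the sum of both rows, with a mean of 2.78%. Reads from within the identical coding sequence cannot be assigned to one of 2 identical copies, so the level of Rps6 itself is uncertain and all values of its row below are given as listed. The same concerns few other members. A copy of at least 95% identity over at least 90% of the coding sequence was annotated for 68 of the 75 members, 10 members had such a copy among the genes of the table, and after Rps6-ps4 the most abundant were BC004004, at 29.0 FPKM beside 158 FPKM of Rpl21, and Rpl37rt, at 10.8 FPKM beside 129 FPKM of Rpl37. The other 9 copies in the table were at 1.71 FPKM or less.

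The summed share of the family differed between mice of one group far more than between groups. The 75 genes took 3.76 to 6.24% of all FPKM of a mouse. In Ctrl mice the share was 4.47 ± 0.517% (SD, n = 9), from 3.85 to 5.21% with a median of 4.22%. In EtOH mice it was 4.21 ± 0.464% (SD, n = 7), from 3.81 to 5.12% with a median of 4.25%. In EtOH-UA mice it was 4.65 ± 0.889% (SD, n = 7), from 3.76 to 6.24% with a median of 4.26%. The 2 highest EtOH-UA mice were above every mouse of the other groups, the remaining mice of the 3 groups overlapped, and the group medians lay closer together than the SD of any group. In bulk tissue, fewer cells of a type and less RNA per cell cannot be told apart.

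**Figure D2:**
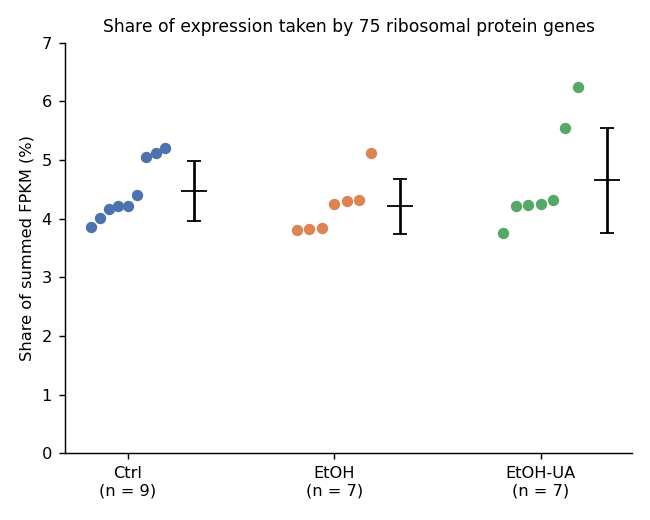
Share of the summed FPKM taken by the 75 ribosomal protein genes (%) in each mouse of the Ctrl, EtOH and EtOH-UA groups, with the mean and SD of each group beside the points. In each group most mice lie between 3.76 and 4.40%, and 3 Ctrl mice, 1 EtOH mouse and 2 EtOH-UA mice lie between 5.06 and 6.24%.

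The plot of shares shows no mouse between 4.40 and 5.06%. Of the 6 mice above 5%, 3 were Ctrl mice at 5.06, 5.12 and 5.21%, 1 was an EtOH mouse at 5.12%, and 2 were EtOH-UA mice at 5.54 and 6.24%. The 17 other mice were at 3.76 to 4.40%. For 71 of the 75 genes these 6 mice held the 6 highest values of the 23. The EtOH-UA mouse at 6.24% was the highest of all mice for 73 members, and the median member was 1.74 times as high in it as in the median EtOH-UA mouse. These 2 EtOH-UA libraries stood apart from the rest, and the fitted medians of the comparisons with the EtOH-UA group are therefore given with and without them. Without them the share in EtOH-UA mice was 4.16 ± 0.228% (SD, n = 5). The 3 Ctrl mice and 1 EtOH mouse above 5% were kept in these fits. Only the EtOH-UA group thus lost its highest mice, which lowers its mean by construction.

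Several measures of the whole library moved with the share. The summed FPKM without the 75 genes was 340033 to 379364 in the 6 mice above 5% and 315332 to 331474 in the other 17. The slope of expression on transcript length, computed in each library over 12543 other genes as the log2 deviation per doubling of length, was between -0.24 and -0.06 in the 6 mice and between -0.01 and 0.08 in the others, so that shorter transcripts were relatively higher in the libraries with the high share. The mean log2 deviation of the genes of complex I, the first enzyme of the mitochondrial respiratory chain, was 0.25 to 0.65 in the 6 mice and -0.28 to 0.06 in the others, and that of the mitochondrial ribosomal protein genes was 0.16 to 0.48 and -0.21 to 0.06. The summed FPKM of the 10 neuronal markers was 3754 to 4098 in the 6 mice and 3652 to 4243 in the others, which overlapped. Microglia markers summed to 181 to 232 FPKM in the 6 mice and 150 to 189 FPKM in the others. Of the 6, only a Ctrl mouse, at 181 FPKM, lay within the latter range. The EtOH-UA mouse at 6.24% was the highest of all for microglia, hippocampal subfield (278 FPKM), erythrocyte (276), endothelial (115) and meningeal (87.95) markers. It was the lowest for astrocyte markers (682 FPKM), and inside the range of the others for oligodendrocyte markers. The 8 choroid plexus markers, led by Ttr, summed to 8.38, 14.8 and 17.1 FPKM in the 3 Ctrl mice with a high share, 16.8 and 7838 FPKM in the 2 EtOH-UA mice and 2579 FPKM in the EtOH mouse, against 54.0 to 5772 FPKM in the others. The part of these measures in the share was not tested.

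**Figure D3:**
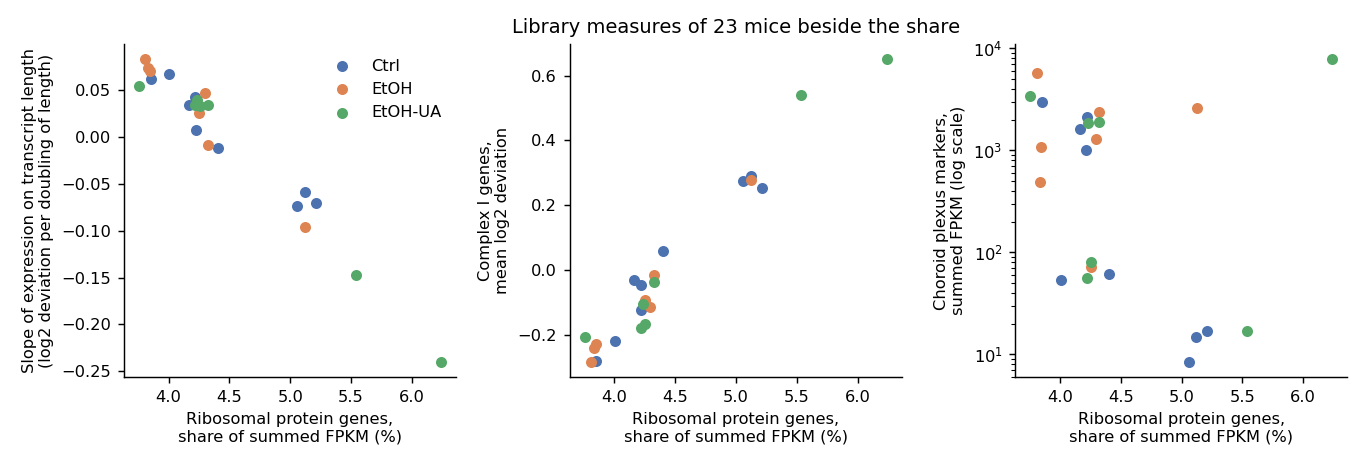
For each of the 23 mice, colored by group, the share of summed FPKM taken by the 75 ribosomal protein genes (%) against the slope of expression on transcript length (log2 deviation per doubling of length, other genes), the mean log2 deviation of 36 complex I genes and the summed FPKM of 8 choroid plexus markers (log axis). The 6 mice above 5% have the lowest slopes, between -0.24 and -0.06, and the highest complex I deviations, 0.25 to 0.65, and their choroid plexus markers span 8.38 to 7838 FPKM.

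The genes moved between mice as one block. On the scale of log2(FPKM + 0.1) with group means removed, Pearson's r between 2 members over the 23 mice had a median of 0.95 over all 2775 pairs, and 95.7% of the pairs were above 0.8. The median was 0.93 within the Ctrl group, 0.94 within the EtOH group and 0.98 within the EtOH-UA group, and 0.90 over the 21 mice that remained without the 2 EtOH-UA mice of highest summed FPKM. Among 939 other genes of like level, between 64.3 and 430 FPKM on average, the median r was 0.25 and 14.3% of the pairs were above 0.8. All values come from the same libraries, so pairs of genes are not independent, and the same high correlation was seen among the complex I genes, with a median r of 0.92 over 36 genes.

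**Figure D4:**
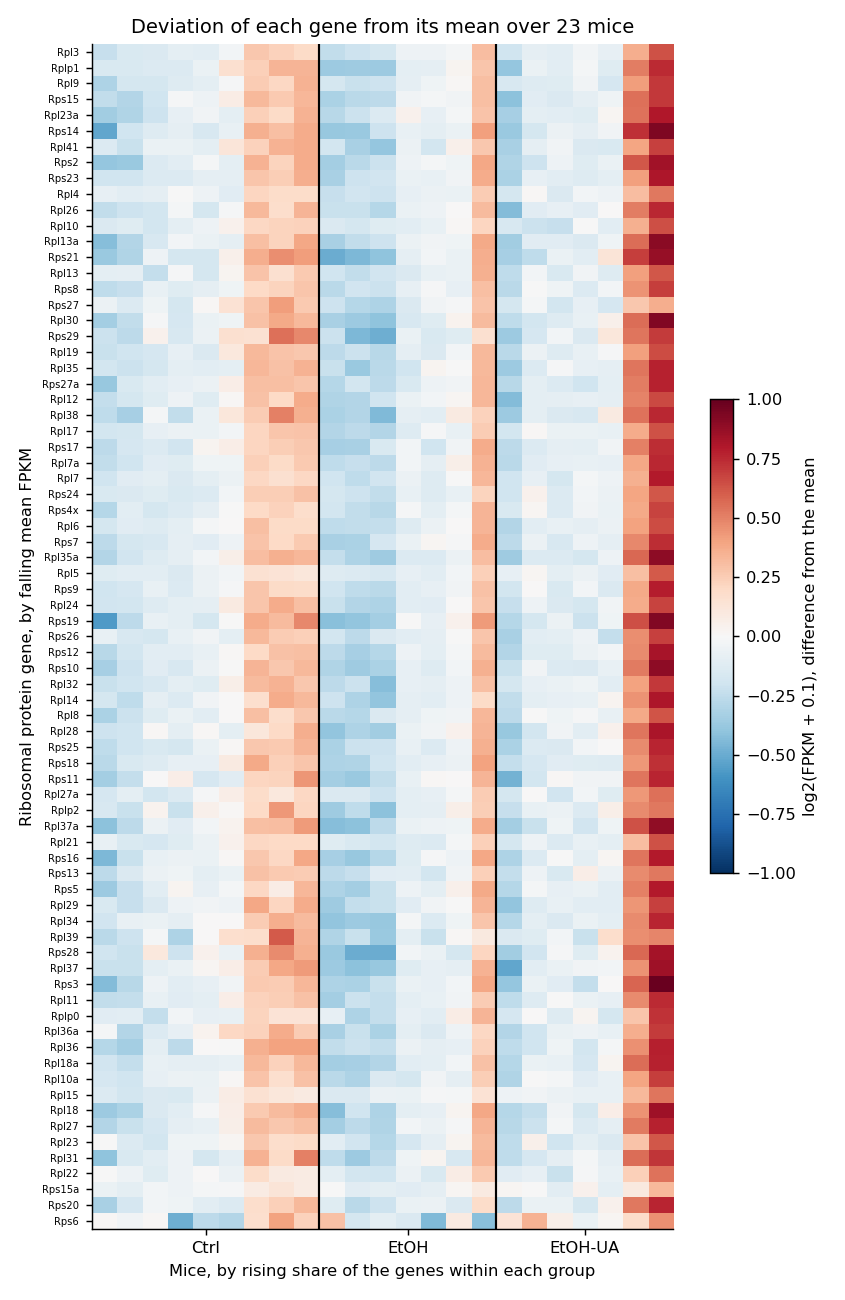
Heatmap of log2(FPKM + 0.1) of the 75 ribosomal protein genes in 23 mice, each as the difference from the mean of the gene over all mice, with genes by falling mean level and mice by rising share within Ctrl, EtOH and EtOH-UA. Nearly all rows turn from lower to higher at the same mice, up to the EtOH-UA mouse with a mean deviation of 0.72, whereas the bottom row, Rps6, does not follow the others.

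The heatmap of deviations shows the large and the small subunit changing together. The mean log2 deviation of a mouse ranged from -0.27 to 0.71 over the 46 genes of the large subunit and from -0.30 to 0.73 over the 29 genes of the small subunit. The difference between the subunits within a mouse stayed between -0.04 and 0.07, with an SD of 0.02 over the 23 mice, while the SD of the mean over all members was 0.26. The median r was 0.95 among genes of the large subunit, 0.95 among genes of the small subunit and 0.95 between genes of different subunits.

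The members nearest to the common pattern were Rpl7a, Rps12, Rps10, Rpl35a and Rpl11, each with a median r of 0.97 with the other 74. Rpl7a, a core protein of the large subunit, spanned 202 to 286 FPKM among Ctrl mice around a median of 231, 199 to 304 FPKM among EtOH mice around 224, and 198 to 401 FPKM among EtOH-UA mice around 226. At the other end were Rps6 (median r 0.27), Rps15a (0.82), Rpl39 (0.83), Rpl22 (0.88) and Rps27 (0.90). When the rows of Rps6 and Rps6-ps4 were summed, their median r with the other members was 0.96, and that of Rps6-ps4 alone was also 0.96. The size of the swings differed more than their timing. A member's slope on the mean of the others had a median of 1.04, was lowest, apart from Rps6 at 0.27, for Rps15a at 0.33, and was highest for Rps19 at 1.41, Rps21 at 1.38 and Rps14 at 1.36.

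Rps15a stayed at 26.4 to 30.9 FPKM among Ctrl mice around a median of 27.9, at 26.04 to 29.96 FPKM among EtOH mice around 26.5, and at 26.2 to 35.4 FPKM among EtOH-UA mice around 28.7. Rps19 spanned 132 to 272 FPKM among Ctrl mice around a median of 186, 146 to 263 FPKM among EtOH mice around 185, and 160 to 372 FPKM among EtOH-UA mice around 188. Both genes encode proteins of the small subunit, and their highest values fell in the same EtOH-UA mouse. Over all members the SD of log2 values between mice of a group ranged from 0.10 for Rps15a, 0.17 for Rpl15 and 0.18 for Rpl22 to 0.36 for Rps14, 0.37 for Rps21 and 0.37 for Rps19, with a median of 0.28. The median SD of the 939 other genes of like level was 0.15, and 74 of the 75 members were above it. Without the 2 EtOH-UA mice the medians were 0.20 for the members and 0.12 for the other genes. Longer members varied less: the median SD was 0.25 over the 37 members with transcripts longer than the median and 0.29 over the 38 others, with Spearman's rho of -0.48 between length and SD across the 75 genes.

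The EtOH against Ctrl comparison addresses what the ethanol diet changed in the hippocampus. All 75 genes had a lower mean log2 value in EtOH mice, with log2 fold changes of -0.28 to -0.01 and a median of -0.11. Over all 15986 genes tested, 51.4% were lower in EtOH mice. None of the 75 passed an adjusted p under 0.05 in limma, as none of the genes tested did (0%), and 0 of the 75 were lower at an unadjusted p under 0.05, against 1.1% of all genes. The median differences were -0.11 for the large and -0.10 for the small subunit. By group medians of FPKM in place of means of log2 values, 66 of the 75 were lower in EtOH mice, against 49.4% of all genes tested. The median of -0.11 is smaller than the SD of the members' mean deviation in either group, 0.21 in Ctrl and 0.20 in EtOH mice. These SDs describe the spread of single mice and are not the error of the difference between groups.

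The members with the smallest p-values in this comparison were short small-subunit genes, of which Rps27 and Rps29 encode zinc-binding proteins. Rps29 was at 213 to 375 FPKM in Ctrl mice (median 263) and 183 to 285 FPKM in EtOH mice (median 230). The groups overlapped, and the log2 fold change was -0.27 with a standard error of 0.14 (limma, adjusted p = 0.999, two-sided exact permutation p = 0.0672 over 11440 splits). Rps28 was at 108 to 174 FPKM in Ctrl mice (median 129) and 88.9 to 145 FPKM in EtOH mice (median 111), with a log2 fold change of -0.28 ± 0.15 (SE, limma, adjusted p = 0.999, exact permutation p = 0.0641). For both genes 6 of 7 EtOH mice were below the Ctrl median. Rps27 was at 232 to 351 FPKM in Ctrl mice (median 264) and 211 to 321 FPKM in EtOH mice (median 237), with a log2 fold change of -0.18 ± 0.10 (SE, limma, adjusted p = 0.999, exact permutation p = 0.109). Rps6, as listed, had a log2 fold change of -0.10 ± 0.12 (SE, limma, exact permutation p = 0.474). The difference of the family rested in part on single mice: without the EtOH mouse at a share of 5.12% its median was -0.18, and without the Ctrl mouse at 5.21% it was -0.07. With the slope on transcript length of each library as a covariate, the median was -0.01, with 24 members higher and 51 lower, and after quantile normalization it was -0.06. The slope went with the members' mean deviation over the mice, from a slope of -0.24 at a deviation of 0.72 to a slope of 0.08 at a deviation of -0.26. A fit with this covariate therefore takes out much of the members' own variation, in all 3 comparisons. Members lower at an unadjusted p under 0.05 numbered 7 with the covariate, 5 without the EtOH mouse at 5.12%, 4 without the 2 EtOH-UA mice, which enter the estimate of the spread, 3 when only the 2 groups compared were fitted, and 2 after quantile normalization, with none past the adjusted threshold in any of these fits. Over all genes, in either direction, such p-values numbered 617 of 15986 with the covariate and 938 of 15985 without the EtOH mouse. They numbered 722 of 15992 without the 2 EtOH-UA mice, 611 of 15994 in the fit of 2 groups and 552 of 15986 after quantile normalization.

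The comparison of EtOH-UA with EtOH mice addresses what UA changed on the ethanol diet, and it shares the EtOH mice with the first, so that the directions of both are not independent. All 75 genes were higher in the mean of EtOH-UA mice, with log2 fold changes of 0.08 to 0.31 and a median of 0.18, where 51.2% of all genes tested were higher. None passed an adjusted p under 0.05 in limma (0% of all genes), and 1 member, Rps6, was higher at an unadjusted p under 0.05, against 1.83% of all genes. The median was 0.17 for the large and 0.19 for the small subunit. By group medians of FPKM, 63 of the 75 were higher in EtOH-UA mice, against 48.2% of all genes tested. The fitted median depended on the 2 EtOH-UA libraries that stood apart. Without the one at 6.24% alone the median log2 fold change was 0.07, without the one at 5.54% alone it was 0.12, and without both it was -0.03, with 19 members higher and 56 lower. It was then -0.03 for the large and -0.02 for the small subunit. Of the 15992 genes tested without both libraries, 7950 were higher. With all mice and the slope on transcript length as a covariate the median was 0.0016, with 39 higher and 36 lower. That fit takes out much of the members' variation between mice, as described for the first comparison. Without the EtOH mouse at 5.12%, in turn, the median was 0.25 and 15 members had an unadjusted p under 0.05, and without the EtOH-UA mouse at 3.76% it was 0.24 and 8 members did, with none past the adjusted threshold in either case. After quantile normalization the median was 0.09, and 4 members had an unadjusted p under 0.05. Over all genes, in either direction, such p-values numbered 1240 of 15985 without the EtOH mouse at 5.12%. They numbered 705 of 15981 without the EtOH-UA mouse at 3.76% and 558 of 15986 after quantile normalization, against 523 of 15986 in the main fit.

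Rps6 was at 6.30 to 10.6 FPKM in EtOH mice and 8.22 to 11.9 FPKM in EtOH-UA mice, and all 7 EtOH-UA mice were above the EtOH median of 7.76 FPKM. Its log2 fold change was 0.29 ± 0.13 (SE, limma, adjusted p = 0.90, two-sided exact permutation p = 0.0344 over 3432 splits). Its log2 fold change was 0.23 without the 2 EtOH-UA libraries and 0.24 with the slope as a covariate, and in these fits no member had an unadjusted p under 0.05. Its level corresponds to an estimated 129 fragments per mouse, where the median member has 2380, and for the sum of Rps6 and Rps6-ps4 the difference of mean log2 values was 0.16, near the median of the family. Rps28 was at 98.3 to 223 FPKM in EtOH-UA mice with a median of 125, against the EtOH values above, and had a log2 fold change of 0.31 ± 0.16 (SE, limma, adjusted p = 0.90, exact permutation p = 0.133), which was 0.08 without the 2 EtOH-UA libraries. Rpl14, of the large subunit, was at 146 to 219 FPKM in EtOH mice (median 178) and 161 to 336 FPKM in EtOH-UA mice (median 182), with a log2 fold change of 0.25 ± 0.14 (SE, limma, adjusted p = 0.90, exact permutation p = 0.154). The 2 highest EtOH-UA mice were at 336 and 261 FPKM and the other 5 at 161 to 195 FPKM, within the range of the EtOH mice, and without the 2 EtOH-UA libraries the log2 fold change of Rpl14 was 0.04.

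**Figure D5:**
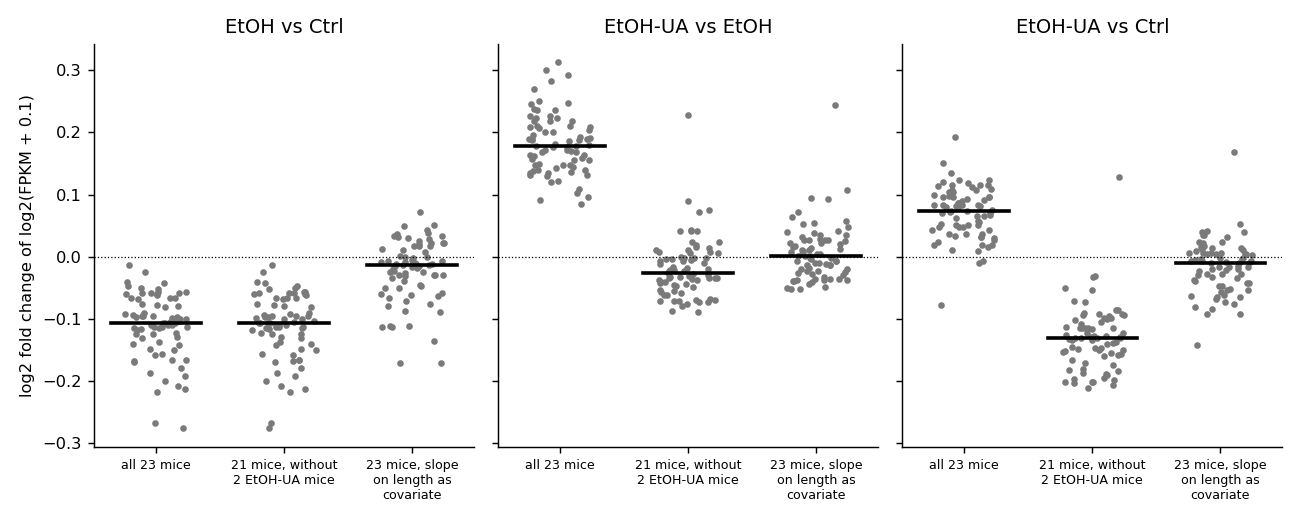
Log2 fold changes of the 75 ribosomal protein genes, on the log2(FPKM + 0.1) scale, for EtOH vs Ctrl, EtOH-UA vs EtOH and EtOH-UA vs Ctrl, each with all 23 mice, without the 2 EtOH-UA mice of highest summed FPKM, and with the slope on transcript length of each library as a covariate. Points are genes and lines are medians: with all mice these are -0.11, 0.18 and 0.07, and with the covariate they are -0.01, 0.0016 and -0.01. The slope went with the members' mean deviation over the mice, so the covariate takes out much of their variation.

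Between EtOH-UA and Ctrl mice, the comparison of treated mice with mice that had no ethanol, 72 genes were higher in EtOH-UA mice and 3 lower, where 51.2% of all genes were higher. The median log2 fold change was 0.07, in a range of -0.08 to 0.19. None of the members passed an adjusted p under 0.05 in limma (0% of all genes), and 0 were higher at an unadjusted p under 0.05, against 1.56% of all genes. By group medians of FPKM, 28 of the 75 were higher, against 47.9% of all genes tested. The direction turned without the 2 EtOH-UA libraries, to a median of -0.13 with 1 member higher and 74 lower, and without the one at 6.24% alone, to -0.03. With both left out and all Ctrl mice kept, 7905 of the 15992 genes tested were higher. Without the one at 5.54% alone the median was 0.01. Other single mice moved it to between 0.04, without the Ctrl mouse at 3.85%, and 0.13, without the EtOH-UA mouse at 3.76%, and quantile normalization to 0.04. With the slope as a covariate the median was -0.01, and 1 member was higher and 5 were lower at an unadjusted p under 0.05, while without the 2 EtOH-UA libraries 2 were lower at that threshold. Over all genes, in either direction, 917 of 15986 passed it in the former fit and 981 of 15992 in the latter. The smallest p-values on the higher side belonged to Rps6 (log2 fold change 0.19, exact permutation p = 0.144), Rpl15 (0.11, exact permutation p = 0.296) and Rpl5 (0.10, exact permutation p = 0.377). The 3 members on the lower side were Rps27 (-0.08, exact permutation p = 0.476), Rpl36a (-0.01, exact permutation p = 0.948) and Rpl41 (-0.01, exact permutation p = 0.967). Rpl41 was at 298 to 449 FPKM in Ctrl mice (median 333), 266 to 420 FPKM in EtOH mice (median 307) and 277 to 557 FPKM in EtOH-UA mice (median 327), which places 3 of 7 EtOH-UA mice above the Ctrl median.

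Other genes of the translation machinery were read beside the family, from lists written by hand, in which some genes stand in more than one list. None of the genes in these lists passed an adjusted p under 0.05 in limma in any of the 3 comparisons, and their directions are given for EtOH against Ctrl as the first comparison and for EtOH-UA against EtOH as the second. Over all genes tested, 51.4% were lower in the first comparison and 51.2% higher in the second. Of the ribosomal protein genes that the naming rule leaves out, 10 were tested, and all 10 had a lower mean in the EtOH than in the Ctrl group (median log2 fold change -0.12) and a higher mean with UA than without it on the ethanol diet (0.22). They include Rpsa, Rps3a1 and Fau, which encodes a fusion of a ubiquitin-like protein with a ribosomal protein, and Rps3a1 was the most abundant at 339 FPKM. Rps27rt and Rpl3l, also among the 10, had means of only 0.62 and 0.40 FPKM, near the filter of 0.1 FPKM. The elongation factor list of 11 genes was led by Eef1a1 at 1434 FPKM and Eef2 at 313 FPKM, which deliver aminoacyl-tRNA and move the ribosome along the messenger RNA. It also holds genes that share the name of a factor, such as Eef1e1 and Eef2k, and need not be elongation factors themselves. The medians of this list were -0.01 for EtOH against Ctrl and 0.11 for EtOH-UA against EtOH, with Eef1e1 at 0.23 in the latter (standard error 0.10, adjusted p = 0.90 in limma). Of 16 other genes with TOP messenger RNAs, led by Tpt1 at 399.8 FPKM and Eif4a2 at 396 FPKM, 15 were lower in the first comparison (median -0.05) and 16 were higher in the second (median 0.10).

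The lists of initiation factors, ribosome biogenesis and the mTOR axis had medians nearer to 0 than the family. Of 38 initiation factor genes, led by Eif4a2 and by Eif1 at 246 FPKM, 29 were lower in the first comparison (median -0.04) and 34 higher in the second (median 0.07), with Eif1b at 0.16 (standard error 0.08, adjusted p = 0.90 in limma). Of 43 ribosome biogenesis genes, led by the nucleolar Npm1 at 145 FPKM and Snu13 at 76.5 FPKM, 25 were lower in the first comparison (median -0.03) and 31 higher in the second (median 0.05). The 21 genes of the mTOR axis, which controls translation of the family, had medians of 0.03 and -0.01, and its most abundant genes were Rheb at 59.9 FPKM and Tsc2 at 25.9 FPKM. The mitochondrial ribosome translates the mitochondrial genome with its own set of proteins, and 78 genes were taken for it by symbols of Mrpl or Mrps with a number. Of these, 67 were lower in the first comparison (median -0.07) and 77 higher in the second (median 0.11). Mrps36 had the smallest p in the latter, with a log2 fold change of 0.31 (standard error 0.11, adjusted p = 0.90 in limma). It is in the list by its symbol only, and whether its product belongs to the mitochondrial ribosome was not checked. In the comparison of EtOH-UA with Ctrl mice the medians of these lists lay between 0.0048 for the mTOR axis and 0.09 for the ribosomal protein genes outside the rule. All 36 complex I genes were lower in the first comparison (median -0.12) and higher in the second (median 0.18), values close to those of the cytosolic ribosomal proteins. Without the 2 EtOH-UA libraries the second comparison was near 0 in every list, with medians from -0.04 for complex I to 0.03 for the ribosomal protein genes outside the rule, and 22 of 78 mitochondrial ribosomal protein genes, 6 of 36 complex I genes, 10 of 38 initiation factors, 8 of 43 ribosome biogenesis genes, 6 of 16 other TOP messenger RNAs, 3 of 11 elongation factors and 6 of 10 ribosomal protein genes outside the rule were higher. Over all genes tested in that fit, 7950 of 15992 were higher. Eef1e1 was then at 0.09, Eif1b at 0.04 and Mrps36 at 0.19. Against Ctrl mice the medians without these libraries lay between -0.17 for complex I and 0.02 for the mTOR axis.

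The closeness of other genes to the family was measured by r with the mean of the 75 over 23 mice, with group means removed, among the 12829 other genes whose mean reached 1 FPKM. Among the 10 genes most like it, Fau (r = 0.98), Eif5a (0.98), Eif3g (0.98), Eef1b2 (0.98) and Rps6-ps4 (0.98) belong to translation or to the family itself. Another 4 were Cox4i1, a subunit of cytochrome c oxidase (0.99), Myl6, a myosin light chain (0.98), Cuedc2 (0.98) and Pfdn5, a subunit of prefoldin (0.98). The most opposite genes were Pdpk1, which encodes the kinase PDK1 (r = -0.97), the nuclear receptor corepressor Ncor1 (-0.97), the coactivator Ncoa6 (-0.96), the exchange factor Sos1 (-0.96) and Stox2 (-0.96). In all, 694 genes (5.41%) had r over 0.9, with a median transcript length of 1206 bases, and 138 genes (1.08%) had r under -0.9, with a median length of 6608 bases, where the median of all genes compared was 2792 bases. By list, the median r with the family was 0.95 for complex I, 0.92 for the ribosomal protein genes outside the rule, 0.88 for the mitochondrial ribosomal proteins, 0.84 for elongation factors, 0.82 for the other TOP messenger RNAs, 0.80 for initiation factors, 0.71 for ribosome biogenesis and -0.17 for the mTOR axis. These correlations describe the same 23 libraries and carry the library measures given above.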

How the data were processed

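Hippocampal reads were mapped by the authors with Bowtie2 (mm10) and summarised with RSEM, and the deposited FPKM, given to 2 decimals, are normalised for both transcript length and library size. The versions differ between sources: the submitters' processing notes name Bowtie2 2.2.5 and RSEM 1.2.8. On the library type, the labels name total RNA, whereas poly(A)+ RNA is given in the methods. Columns were mapped to groups by name, and no mouse was left out. Since FPKM are not counts, log2(FPKM + 0.1) of the 15986 genes whose mean reached 0.1 FPKM was fitted with limma 3.58.1 in R 4.3.3 (3 groups, eBayes with trend, no covariate), with Benjamini-Hochberg adjustment over all genes and a threshold of 0.05. For single members, two-sided exact permutation tests were added. The fit was tested on simulated data. The members and gene lists were chosen with earlier results of these data known.

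Members named in the text were the 5 highest and 5 lowest by mean, by comparison the 3 smallest p-values in each direction, the 5 highest and 5 lowest by median r, the 3 lowest and 3 highest by SD, and 16 genes of known role. Of each list the 2 most abundant genes and those with the smallest p were eligible, and the 10 most similar and 5 most opposite other genes. The windows printed and the copies were chosen after their values had been seen. Depth was estimated from the steps between low FPKM values of 53 genes, at a median of 16.8 fragments per kilobase at 1 FPKM. The estimate uses annotated lengths. Intervals cover counting error only. Transcript lengths and coding sequences are from GENCODE M21, copies were sought with blastn 2.17.0, and start sites are from RefSeq. The small nucleolar RNA host genes were not analysed here. All 10 neuronal and all 8 hippocampal subfield markers had a mean of at least 1 FPKM. So did all 8 choroid plexus, 7 endothelial and 8 oligodendrocyte markers, and this floor cannot tell hippocampus from other brain tissue. The alternatives were other pseudocounts (1, 0.01), filters, scalings, robust eBayes, 2-group fits and each mouse left out. Fits without the 2 EtOH-UA mice of highest summed FPKM, with the length slope as covariate, and centred on the members, and the sum of Rps6 with its copy, were added after seeing the data. One gene among those most like the family is not reported here by name.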

Additional observations from a re-analysis of the deposited data

Results flagged for a closer look

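In each group, the gap between the highest or lowest mouse and its neighbor was set against the range of the group for the share of the family, for Rps6-ps4 and for each named member. In 16 of 111 groups of values the gap was a larger share of the range than Dixon's 95% critical value, where chance alone flags about 1 in 20, or 5.55, and values of one mouse are not independent. In 15 of the 16 the mouse was the same, the EtOH mouse that took 5.12% of its FPKM in the family against 4.32% in the next EtOH mouse. It was the highest EtOH mouse, past the critical value, for Rps6-ps4 (383 FPKM), Rpl3 (526 FPKM), Rpl9 (459 FPKM), Rps20 (24.2 FPKM), Rpl15 (113 FPKM), Rpl5 (247 FPKM) and Rps12 (244 FPKM). The same held for Rps10 (249 FPKM), Rpl35a (266 FPKM), Rpl13a (373 FPKM), Rps3 (164 FPKM), Rps4x (282 FPKM), Rps27a (318 FPKM) and Rps14 (467 FPKM). The remaining value was Rplp0 at 198 FPKM in the EtOH-UA mouse of highest share, against 145 FPKM in the next. For the other named members neither of the 2 EtOH-UA mice with a high share was separated from its neighbor by a gap of this size. The gap is taken to the next mouse, so 2 high mice in one group can hide each other. The lack of a flag therefore does not place these 2 mice with the rest of their group.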

How the results depend on the processing

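The count of members past an adjusted p under 0.05 in limma was 0 in all 3 comparisons under every alternative run, and medians kept their direction under the other pseudocounts, filters, 2-group fits, robust eBayes and upper-quartile or quantile scaling. Without the 2 EtOH-UA mice of highest summed FPKM the median log2 fold change was -0.026 for EtOH-UA against EtOH and -0.13 for EtOH-UA against Ctrl, Rpl15 was at -0.032 and Rpl5 at -0.050 in the latter, and the median r between members was 0.90. With the slope on transcript length as a covariate, which takes out much of the members' variation, the median for EtOH-UA against Ctrl was -0.0096. Centring each library on the members brings their median near 0 by construction (0.0052 for EtOH against Ctrl, -0.0041 for EtOH-UA against EtOH) and placed Rps6 at 0.012 for EtOH against Ctrl, and it moved the median of all genes to 0.11, -0.18 and -0.07 in the 3 comparisons. After quantile normalization the median r was 0.80, and the cause was not tested. Leaving out each mouse in turn gave medians of -0.18 to -0.07 for EtOH against Ctrl, 0.07 to 0.25 for EtOH-UA against EtOH and -0.031 to 0.13 for EtOH-UA against Ctrl, and for the latter -0.12 to 0.049 for Rpl36a and -0.11 to 0.056 for Rpl41. The share without mitochondrially encoded genes was not run, as none was among the genes analysed. No paired analysis was possible because the columns carry no replicate numbers. Depth limits Rps6 most, and other members rest on more fragments.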
